A study of Danio rerio with 24 samples.

Results

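The genes of mitochondrial fission and fusion, of mitophagy and of autophagosome formation were examined in zebrafish skeletal muscle. Members were chosen by gene symbol, and 64 of the 31953 genes in the count table matched: the mitofusins, opa1 and opa3, the fission GTPase gene dnm1l with its adaptors and regulators, pink1 and park2, the bnip3 and fundc receptor genes, sqstm1 and optn, the ulk, becn1, ambra1, atg and wipi genes, the LC3 and GABARAP genes, and tfeb with its relatives. Of these, 62 passed the filter on low counts that left 18947 genes. The other two, atg2b and map1lc3c, had means of 4.57 and 3 counts per library and were not tested.

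Mitochondria divide and fuse continuously. Fission by the dynamin-like GTPase Drp1 separates fragments, mitofusins join outer membranes and OPA1 joins inner ones. Damaged fragments are marked by the kinase PINK1 and the ubiquitin ligase Parkin, or by receptors in the outer membrane, and are enclosed by an autophagosome whose membrane carries lipid-linked ATG8 proteins (LC3 and GABARAP). Muscle fibres are known to depend on this turnover.

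The study compared 3 groups of fish, all 4 months old. Untrained wild-type fish were the controls (untrained_WT), wild-type fish put through chronic exercise were the trained group (trained_WT), and untrained fish of genotype actc1b:PGC1alpha were the transgenic group (untrained_TG). PGC1alpha is a coactivator known for switching on mitochondrial biogenesis. The transgene's name gives it the promoter of actc1b, a muscle actin gene. No trained transgenic group was analysed here. Each group had 7 libraries, and whether each stands for 1 fish or a pool is not stated. The p-values therefore cover variation among libraries, which may be technical.

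Libraries held from 42.8 M to 79.2 M counts over genes, of which the members took 0.180% ± 0.0295 in untrained_WT, 0.183% ± 0.0158 in trained_WT and 0.132% ± 0.0158 in untrained_TG (SD, n = 7). Those totals include mitochondrially encoded genes, which took 10.5% ± 2.38 of counts in untrained_WT, 11.2% ± 1.45 in trained_WT and 46.8% ± 2.45 in untrained_TG (SD, n = 7). The members' share of the remaining counts was not computed. The endogenous gene ppargc1a, which encodes PGC1alpha, was at 4.97 to 28.0 CPM (counts relative to the scaled size of the library) in untrained_TG (median 14.3) and 6.62 to 44.1 CPM in untrained_WT (median 37.9), a log2 change of -0.74 ± 0.43 (adjusted p = 0.168). Whether its count includes the transgene is not given, so it does not check the labels. The gene actc1b itself fell in untrained_TG, from a median of 25078 CPM to 3130 CPM (-2.95 ± 0.27, adjusted p = 1.13e-08). Skeletal muscle markers were present in every library, with summed levels of 46838 to 142741 CPM in untrained_WT, 87205 to 157733 CPM in trained_WT and 20498 to 25566 CPM in untrained_TG. Germ line markers reached 127.9 CPM in untrained_WT replicate 3 and 78.4 CPM in replicate 7, against 4.46 to 18.2 CPM in the other untrained_WT libraries, 1.76 to 27.6 CPM in trained_WT and 1.20 to 8.42 CPM in untrained_TG. In untrained_TG against untrained_WT 8 of 8 tested germ line markers fell, with a median log2 change of -4.82, and 1 of 8 without untrained_WT replicates 3 and 7. Of muscle markers 6 of 11 fell and 1 rose, 0 of 9 red blood cell and 0 of 4 skin markers passed, and of 8 white blood cell markers 2 rose and 2 fell. Red blood cell markers summed to 2126 CPM in untrained_WT replicate 5, against 294 to 512 CPM in the other untrained_WT libraries. The lowest untrained_WT muscle marker sums were in replicates 7, 5 and 3 (46838, 73636 and 86114 CPM). The part of these shifts in the results was not tested. These are whole-muscle samples, so fewer cells of a type and less RNA per cell cannot be told apart.

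The first comparison asked how the transgene changes these genes in untrained muscle. In untrained_TG, dnm1l, mief1, MTFP1, mtfr1l and opa3 rose. The other members to rise were mtfr1, mfn1b ENSDARG00000101793, park2, sqstm1, atg101 and gabarapl2. Falls were called for 4 of 9 genes of autophagosome initiation, 4 of 6 of membrane supply and 8 of 12 of ATG8 conjugation. Also lower were mfn1b ENSDARG00000079219, mtfr2, bnip3la, bnip3lb, tfe3a and tfe3b. At an adjusted p under 0.05 in edgeR's quasi-likelihood test, 33 of 62 members changed (53.2%, against 43.4% of all genes tested), 11 higher and 22 lower. Over all genes 18.3% were higher and 25.1% lower. The median log2 fold change was -0.16 over the members and -0.13 over all genes, and 6 members lay above and 5 below untrained_WT with no overlap between the groups, which held for 15.8% of all genes tested.

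That balance held with median-ratio scaling (11 higher and 22 lower) and with DESeq2 (11 and 23). It also held with mitochondrially encoded genes left out before scaling (11 and 21), but not with library totals. With library totals in place of TMM, the median of all genes moved by -0.51, and 7 members were higher and 39 lower. On the same scaling the trained contrast moved by -0.30 and the direct contrast of untrained_TG with trained_WT by -0.21.

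**Figure D1:**
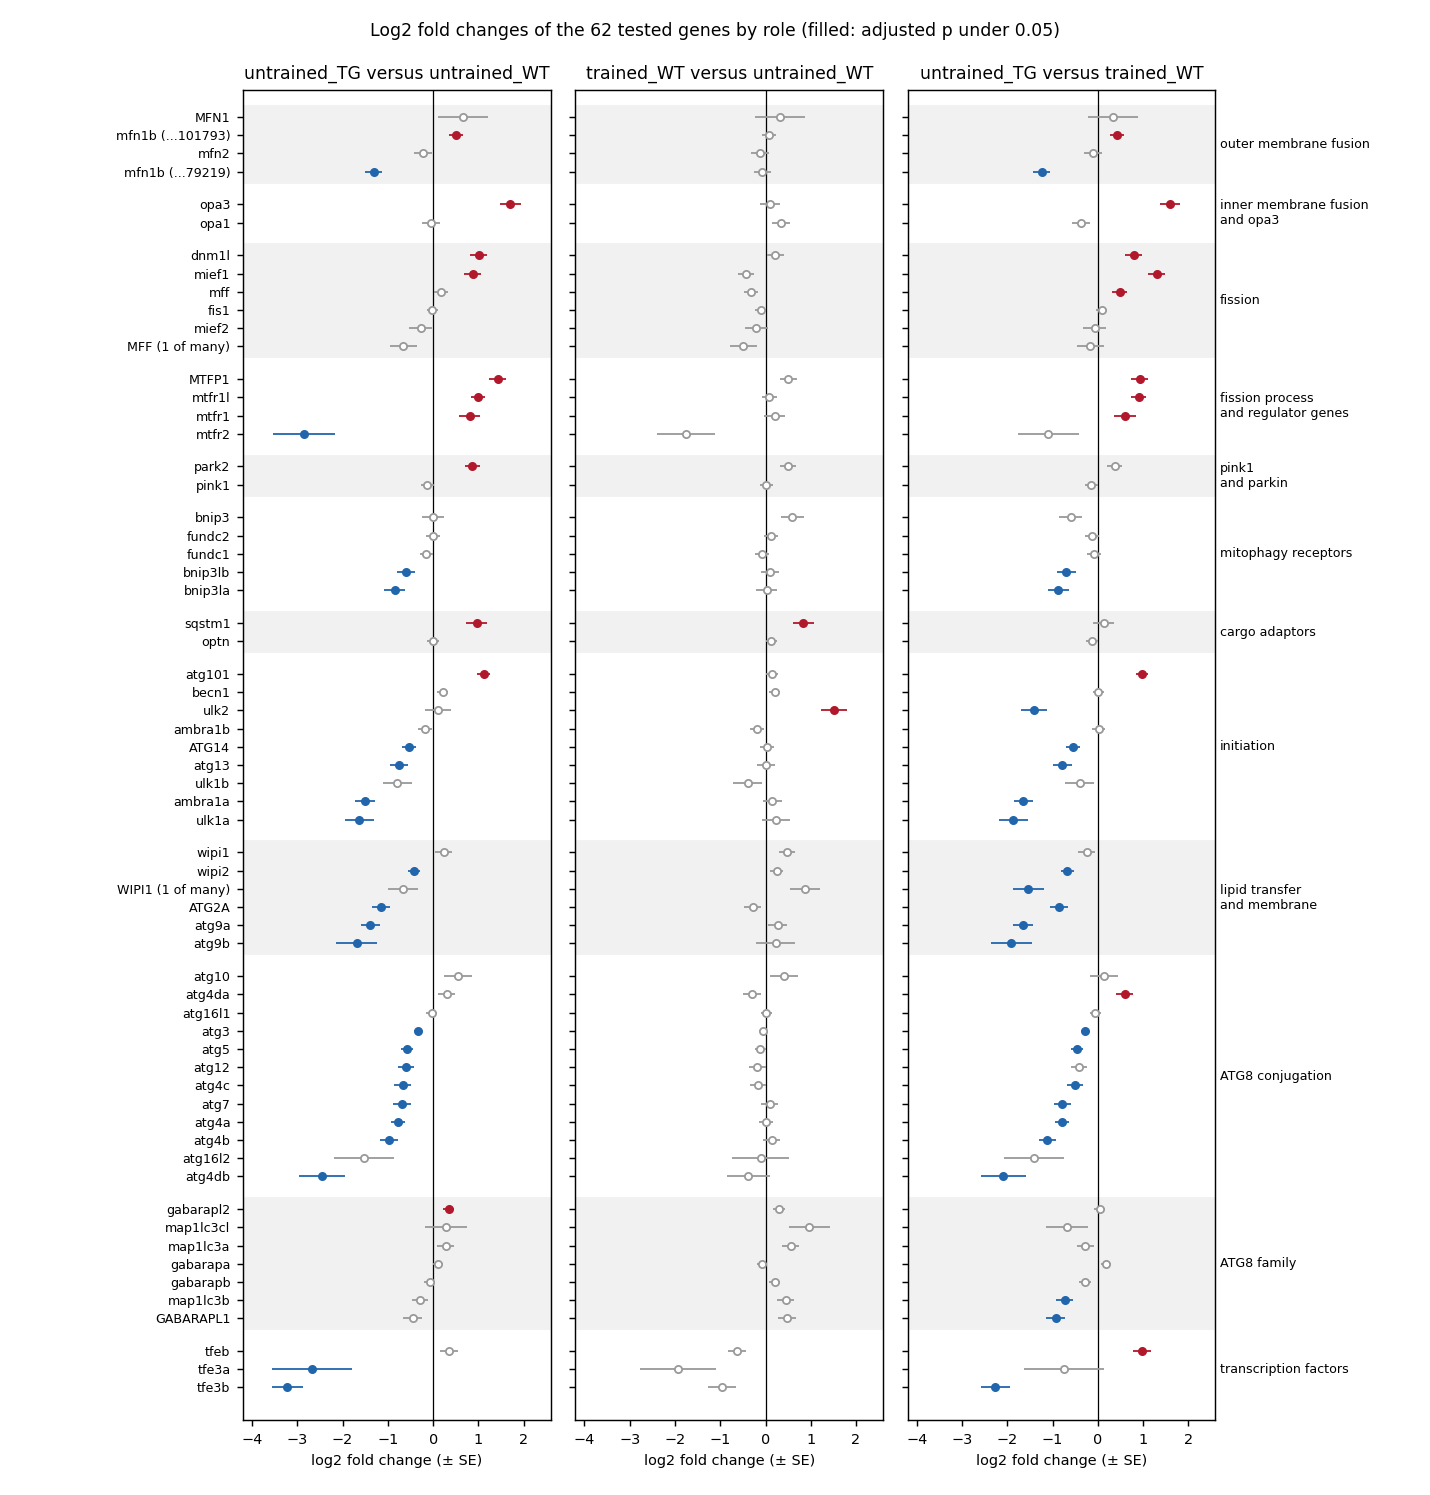
Log2 fold change ± SE of each of the 62 tested members in the 3 comparisons, grouped by role; filled points passed an adjusted p of 0.05, red for higher and blue for lower. The left panel holds 11 red and 22 blue points and the middle panel 2 red points, ulk2 and sqstm1.

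Of the fission machinery, 2 of 6 genes rose in untrained_TG and none fell (33.3% called, below the 43.4% of all genes). With library totals 2 rose and 3 fell. The gene dnm1l, which encodes Drp1, was at 36.4 to 111 CPM in untrained_WT (median 80.8) and at 113 to 194 CPM in untrained_TG (median 146). Every transgenic library lay above every untrained_WT and trained_WT library, and the level against untrained_WT was higher by 1.01 ± 0.19 on the log2 scale (SE, adjusted p = 0.000191). The gene mief1, which encodes an outer membrane adaptor that recruits Drp1, ran from 5.74 to 10.1 CPM in untrained_WT (median 9.00) and from 10.7 to 21.1 CPM in untrained_TG (median 15.7), again without overlap. Its log2 fold change was 0.87 ± 0.19 (adjusted p = 0.000617).

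The other Drp1 receptors did not pass the test against untrained_WT. The change in fis1 was -0.02, with a 95% interval of -0.28 to 0.24, and that in mff was 0.16, with an interval of -0.16 to 0.48. A second entry, MFF (1 of many), had a change of -0.66 (adjusted p = 0.0795). It was called lower with library totals (-1.26, adjusted p = 0.00607) and without untrained_WT replicate 5. With library totals fis1 was called lower (-0.53, adjusted p = 0.0233). For mief2, a paralog of mief1, it was -0.27, with an interval of -0.80 to 0.25, and library totals called it lower too (-0.67, adjusted p = 0.00505).

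All 4 genes named for the fission process or its regulation changed, 3 higher and 1 lower (100% called, against 43.4% of all genes). MTFP1, which encodes an inner membrane protein needed for fission, ran from 11.8 to 30.4 CPM in untrained_WT (median 20.6), from 22.7 to 35.7 CPM in trained_WT (median 29.3) and from 37.6 to 73.4 CPM in untrained_TG (median 48.5). The transgenic libraries lay above all others, with a log2 fold change of 1.42 ± 0.19 (adjusted p = 2.47e-06) against untrained_WT. The fission regulator gene mtfr1l rose without overlap as well, by 0.99 ± 0.16 (adjusted p = 3.13e-05), from 7.76 to 14.2 CPM (median 11.1) to 16.1 to 26.8 CPM (median 23.0).

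Its relative mtfr1 rose by 0.81 ± 0.24 (adjusted p = 0.00913), a call that library totals end (0.29, adjusted p = 0.321). The third relative, mtfr2, fell by 2.85 ± 0.68 on the log2 scale (adjusted p = 0.00182), at levels of 0.0856 to 1.33 CPM in untrained_WT and 0 to 0.179 CPM in untrained_TG. Its highest values, 1.33 and 1.20 CPM, were in untrained_WT replicates 3 and 7, the libraries with the most germ line RNA, whose part in the fall was not tested. Without those libraries its log2 fold change was -1.67 ± 0.64 (adjusted p = 0.0426).

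Of the fusion genes, the mitofusins divided. The symbol mfn1b is shared by 2 Ensembl IDs, and mitofusin 1 joins outer membranes. A separate entry, MFN1, had a change of 0.66 that did not pass (adjusted p = 0.361). ENSDARG00000079219 was at 4.82 to 14.7 CPM in untrained_WT (median 12.4) and 3.33 to 5.34 CPM in untrained_TG (median 4.37). Only the lowest untrained_WT library fell among the transgenic ones, and the log2 fold change was -1.32 ± 0.19 (adjusted p = 7.66e-06).

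ENSDARG00000101793 moved the other way. It was at 20.5 to 36.7 CPM in untrained_WT (median 30.9) and 32.9 to 49.3 CPM in untrained_TG (median 39.6), with overlap, and rose by 0.51 ± 0.15 (adjusted p = 0.0101). That call ends with library totals (0.08, adjusted p = 0.624) and without untrained_WT replicates 3 and 7 (0.40, adjusted p = 0.0569). It supplied 73.5% ± 4.04 of the counts of both IDs in untrained_WT, 75.0% ± 3.0 in trained_WT and 90.5% ± 1.94 in untrained_TG, while their summed level was 39.7 ± 9.84, 40.9 ± 6.55 and 45.7 ± 6.81 CPM (SD, n = 7). Reads aligned to more than 1 place stayed outside the gene counts. How many of those came from either ID is not given, so the split is uncertain.

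The gene mfn2, whose product also tethers mitochondria to the endoplasmic reticulum, did not pass the test. It ran from 43.6 to 92.6 CPM in untrained_WT (median 65.7) and from 37.9 to 98.8 CPM in untrained_TG (median 48.1), with a change of -0.23 (95% interval -0.65 to 0.20). Nor did opa1, the inner membrane fusion GTPase gene, at 39.2 to 118 CPM and 60.3 to 109 CPM (medians 99.7 and 85.9). Its change of -0.04 had an interval of -0.46 to 0.37, and its sign turned under several alternatives. With library totals mfn2 and opa1 were both called lower (-0.68, adjusted p = 0.00445, and -0.42, adjusted p = 0.00795).

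By contrast opa3, which encodes a mitochondrial membrane protein mutated in human optic atrophy, had the largest rise of the named members. It was at 3.94 to 12.6 CPM in untrained_WT (median 7.90), 5.60 to 12.2 CPM in trained_WT (median 8.77) and 14.4 to 35.1 CPM in untrained_TG (median 30.1). No transgenic library overlapped either wild-type group, and the log2 fold change was 1.70 ± 0.23 (adjusted p = 3.69e-06).

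**Figure D2:**
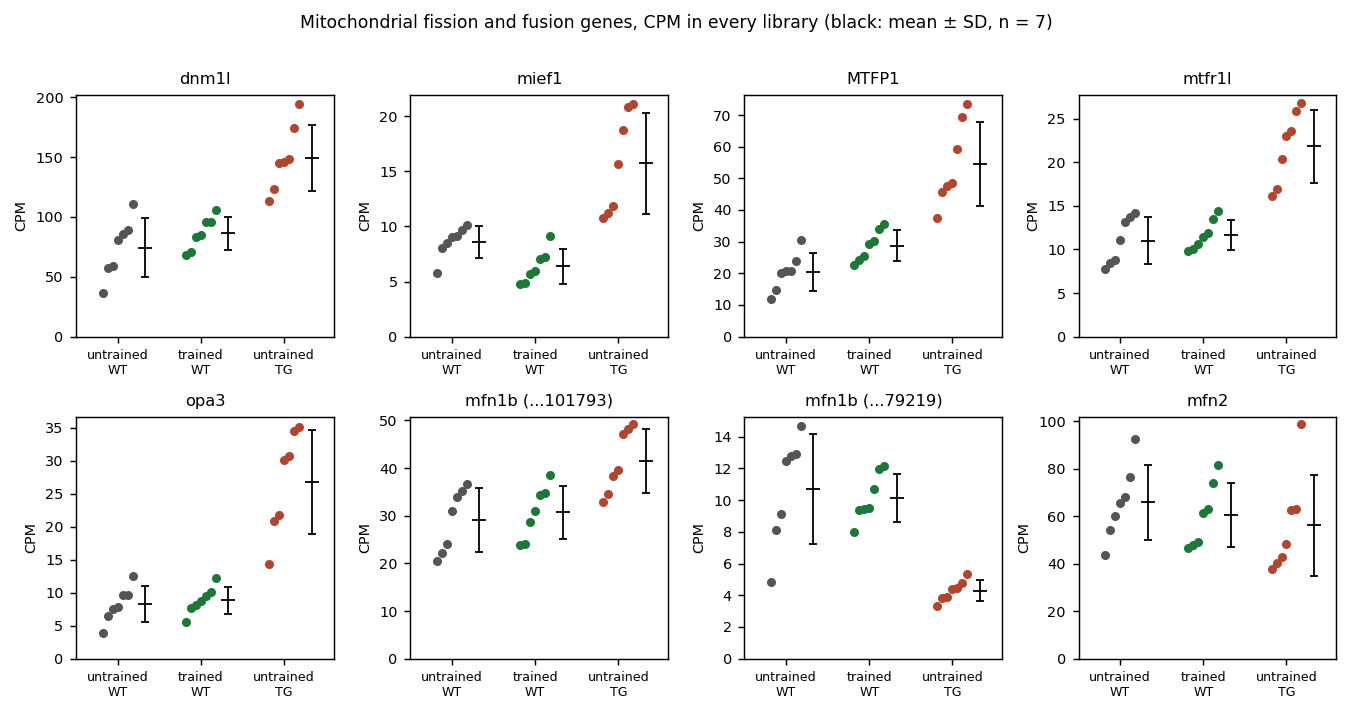
CPM of 8 fission and fusion genes in every library (points) with the mean and SD of each group of 7 (black). The transgenic points of dnm1l, mief1, MTFP1, mtfr1l and opa3 lie above all wild-type points, and the mfn1b IDs move in opposite directions.

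Of the mitophagy genes, park2 rose and both bnip3l copies fell in untrained_TG. The gene park2, which encodes Parkin, was at 8.56 to 16.2 CPM in untrained_WT (median 14.6) and 15.1 to 30.5 CPM in untrained_TG (median 24.4), a log2 change of 0.87 ± 0.17 (adjusted p = 0.000251). The lowest transgenic library overlapped untrained_WT. Its upstream kinase gene pink1 was at 45.2 to 80.7 CPM and 46.2 to 65.3 CPM (medians 58.9 and 60.1), with a change of -0.13 (95% interval -0.43 to 0.16) that did not pass; with library totals it was called lower (-0.60, adjusted p = 0.00515).

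Receptor genes fell or did not pass (40% called, near the 43.4% of all genes). The NIX receptor gene bnip3lb ran from 115 to 270 CPM in untrained_WT (median 179) and from 84.4 to 166 CPM in untrained_TG (median 121), and fell by 0.60 ± 0.20 (adjusted p = 0.0191); without untrained_WT replicate 8 the adjusted p was 0.0533. Its copy bnip3la ran from 3.24 to 8.83 CPM (median 5.03) and from 1.30 to 4.48 CPM (median 3.26), and fell by 0.85 ± 0.23 (adjusted p = 0.00560). Both pairs of groups overlapped. The related receptor gene bnip3 was at 26.9 to 104 CPM and 43.9 to 103 CPM (medians 64.1 and 65.8), with an interval of -0.52 to 0.52, and fundc1 and fundc2, receptors of the outer membrane, had changes of -0.15 and -0.01. Both fundc genes were called lower with library totals (-0.58 and -0.47).

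Of the cargo adaptors that bridge ubiquitin to ATG8 proteins, sqstm1 rose and optn did not pass with TMM scaling; with library totals optn was called lower (-0.48, adjusted p = 0.0291). The p62 gene sqstm1 was at 25.7 to 46.3 CPM in untrained_WT (median 36.7) and 37 to 155 CPM in untrained_TG (median 62.2), with a log2 change of 0.96 ± 0.23 (adjusted p = 0.00166). The groups overlapped in 1 transgenic library at the low end, and the value of 155 CPM was from untrained_TG replicate 7, where the others reached at most 75.9 CPM. With library totals the change was 0.54 (adjusted p = 0.103).

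Of the 9 initiation genes, 4 fell and 1 rose in untrained_TG (55.6% called, against 43.4% of all genes). The kinase gene ulk1a, whose product starts autophagosome formation, was at 36.2 to 81.8 CPM in untrained_WT (median 52.5), 29.3 to 111 CPM in trained_WT (median 62.1) and 7.27 to 29.2 CPM in untrained_TG (median 22.1). Every transgenic library lay below every wild-type one, and the log2 fold change against untrained_WT was -1.63 ± 0.31 (adjusted p = 0.000227). Its partner atg13 fell by 0.76 ± 0.20 (adjusted p = 0.00402), from 23.4 to 55.3 CPM (median 44.6) to 17.5 to 32.4 CPM (median 23.3), with overlap.

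Another subunit of that kinase complex did the reverse. The gene atg101, whose product stabilises ATG13, was at 5.77 to 11 CPM in untrained_WT (median 7.71) and 13 to 19.7 CPM in untrained_TG (median 16.7), with no overlap and a log2 fold change of 1.11 ± 0.14 (adjusted p = 8.81e-07). It was the only initiation gene of the 9 to rise.

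Of the genes of the lipid kinase step, ambra1a and ATG14 fell. The Beclin 1 regulator gene ambra1a was at 2.63 to 6.01 CPM in untrained_WT (median 5.14) and 0.864 to 2.69 CPM in untrained_TG (median 1.72), and fell by 1.5 ± 0.21 (adjusted p = 6.58e-06). The ranges touched in 1 library of each group. ATG14, which directs the lipid kinase to autophagy, fell by 0.53 ± 0.16 (adjusted p = 0.00961), while becn1 itself had a change of 0.21 (95% interval -0.04 to 0.46) and ambra1b, the second copy of ambra1, one of -0.18 (interval -0.49 to 0.14). With library totals ambra1b was called lower (-0.64, adjusted p = 0.000832).

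Of the 6 tested genes of lipid transfer and membrane supply, 4 fell and none rose (66.7% called, against 43.4% of all genes). ATG2A, which encodes a lipid transfer protein of the growing membrane, was at 5.34 to 12.6 CPM in untrained_WT (median 8.41) and 2.43 to 4.70 CPM in untrained_TG (median 4.06), without overlap and with a log2 change of -1.14 ± 0.20 (adjusted p = 7.73e-05). The lipid scramblase gene atg9a was at 13.7 to 39.2 CPM (median 29.1) and 6.37 to 13.2 CPM (median 9.55), also without overlap, and fell by 1.38 ± 0.22 (adjusted p = 2.34e-05). Its paralog atg9b fell by 1.69 ± 0.45 (adjusted p = 0.00427), from 4.05 to 21.2 CPM (median 12.6) to 0.834 to 6.91 CPM (median 4.34), with overlap. Lipid-binding wipi2 fell by 0.43 ± 0.14 (adjusted p = 0.0167), and the call ended when mitochondrially encoded genes were left out before scaling (adjusted p = 0.0548).

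Conjugation attaches ATG8 proteins to lipid, and the 12 genes counted here include the ATG4 protease genes. Of the 12, 8 fell, none rose and 4 did not pass (66.7% called, against 43.4% of all genes). The 4 were atg10 (0.54), atg4da (0.30), atg16l1 (-0.03) and atg16l2 (-1.52, adjusted p = 0.0685). DESeq2 and library totals called atg16l2 lower, as did the authors' deposited table (-1.30, adjusted p = 0.0460). With library totals atg16l1 was called lower too (-0.52, adjusted p = 0.00499). Those that fell were atg7, the E1-like enzyme gene, atg3, an E2-like enzyme gene, atg5 and atg12, whose products form the E3-like complex, and the protease genes atg4a, atg4b, atg4c and atg4db. Among those with a mean of at least 50 counts the changes were modest, from -0.33 ± 0.09 in atg3 (adjusted p = 0.00627) to -0.98 ± 0.19 in atg4b (adjusted p = 0.000274). The gene atg3 was at 9.74 to 12 CPM in untrained_WT (median 11.2) and 7.44 to 9.56 CPM in untrained_TG (median 9.22), a small difference without overlap. The scarce atg4db fell by 2.46 ± 0.51 (adjusted p = 0.000449), from 0.202 to 0.782 CPM to 0.0182 to 0.257 CPM.

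With TMM scaling the genes of the conjugated ATG8 proteins did not follow. Of the 7 tested, 1 rose and none fell (14.3% called, against 43.4% of all genes), while with library totals none rose and 3 fell. The riser gabarapl2 was higher by 0.34 ± 0.12 (adjusted p = 0.0301), a call that 9 of 22 alternatives ended and whose sign turned with library totals (-0.14). GABARAPL1 had a change of -0.46 (adjusted p = 0.0703). It was called lower with library totals (-0.91, adjusted p = 0.00102) and without untrained_WT replicate 5. The LC3 genes map1lc3a and map1lc3b had changes of 0.28 (95% interval -0.10 to 0.66) and -0.29 (interval -0.67 to 0.09). The first ran from 16.9 to 39.3 CPM in untrained_WT (median 26.5) and 23.4 to 44.0 CPM in untrained_TG (median 32.0), the second from 26.2 to 68.2 CPM (median 51.3) and 27.3 to 47.9 CPM (median 42.0). With library totals map1lc3b was called lower (-0.76, adjusted p = 0.00224), as it was without untrained_WT replicate 5 (-0.43, adjusted p = 0.0321).

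The transcription factor genes of lysosome and autophagy programmes split as well. The gene tfe3b was at 1.78 to 4.34 CPM in untrained_WT (median 2.01), 0.874 to 1.92 CPM in trained_WT (median 1.1) and 0.0515 to 0.438 CPM in untrained_TG (median 0.244). It had the largest fall of any member, by 3.22 ± 0.34 on the log2 scale (adjusted p = 9.90e-08), and the transgenic libraries lay below all others. Its paralog tfe3a fell by 2.69 ± 0.88 (adjusted p = 0.0175) at levels of at most 0.672 CPM. In contrast tfeb was at 24.8 to 48.7 CPM in untrained_WT (median 37) and 30.0 to 69.8 CPM in untrained_TG (median 49.8), a change of 0.34 (95% interval -0.07 to 0.75) that did not pass and whose sign turned with library totals (-0.093).

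**Figure D3:**
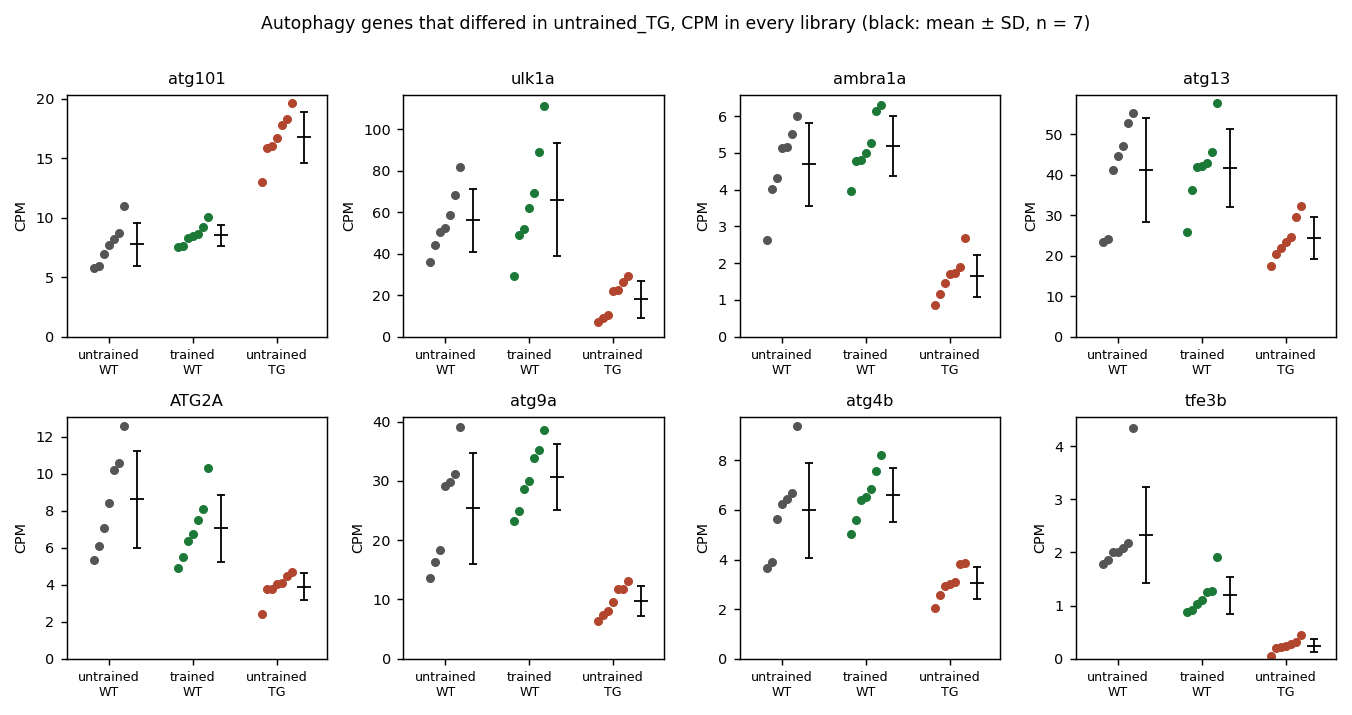
CPM of 8 autophagy genes in every library (points) with the mean and SD of each group of 7 (black). The transgenic points lie above all wild-type points for atg101 and below all of them for ulk1a, ATG2A, atg9a and tfe3b.

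The second comparison asked what chronic training changes in wild-type muscle. Here 2 of 62 members passed, ulk2 and sqstm1, both higher (3.23%, against 2.95% of all genes, 2.25% higher and 0.702% lower), so the share of members called was near the background. At an unadjusted p under 0.05 there were 17 members. The share of all genes at that threshold was not counted, so the 17 cannot be set against a background. The member median was 0.09 and that of all genes -0.07; with library totals the member median was -0.16. Above untrained_WT without overlap lay 2 members and below it 1, tfe3a, against 1.34% of all genes.

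The kinase gene ulk2, a relative of ulk1a, was at 22.9 to 99.7 CPM in untrained_WT (median 62.6), 112 to 204 CPM in trained_WT (median 164) and 34.9 to 109 CPM in untrained_TG (median 52.2). Every trained library lay above every other library. The log2 fold change in training was 1.51 ± 0.29 (adjusted p = 0.00473), and its call held in each of the 22 alternatives. In untrained_TG it was 0.11 (95% interval -0.48 to 0.70).

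The mix of ulk transcripts is given as a description, without a test. Of the summed counts of ulk1a, ulk1b and ulk2, ulk2 supplied 47.5% ± 12.8 in untrained_WT, 71.0% ± 5.77 in trained_WT and 75.2% ± 11.1 in untrained_TG (SD, n = 7). In trained_WT ulk2 rose and ulk1a had a change of 0.24 (95% interval -0.40 to 0.87), while in untrained_TG ulk1a fell. The change in ulk1b was -0.79 in untrained_TG (adjusted p = 0.0516), and 5 of 22 alternatives called it lower. After training the change in ulk1b was -0.39 (adjusted p = 0.534).

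The adaptor gene sqstm1 was at 54.0 to 78.8 CPM in trained_WT (median 69.9), above every untrained_WT library (25.7 to 46.3 CPM). Its rise of 0.84 ± 0.23 had an adjusted p of 0.0481, which 17 of 22 alternatives moved past 0.05. These were median-ratio scaling (0.83, adjusted p = 0.0551), library totals, no filter, and leaving out any one library other than untrained_WT replicate 4 or both untrained_WT replicates 3 and 7 (0.74, adjusted p = 0.183). It was the one member called higher in both comparisons with untrained_WT, which share those controls.

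The transcription factor genes were lower after training without passing. For tfeb, at 15.8 to 31.9 CPM in trained_WT (median 24.9), the change was -0.63 ± 0.20 (adjusted p = 0.0894). For tfe3b it was -0.96 ± 0.31 (adjusted p = 0.0901). In the authors' deposited table both were called lower, with log2 fold changes of -0.63 and -0.94 and adjusted p-values of 0.0445 and 0.0194, and DESeq2 run here called them too.

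Of the ATG8 family none passed after training. An unadjusted p under 0.05 was found for 5 of 7, with no count over all genes to set beside it. Their summed level was 299.9 ± 61.7 CPM in untrained_WT, 382 ± 55.2 CPM in trained_WT and 280.2 ± 31.1 CPM in untrained_TG (SD, n = 7). In training map1lc3a had a change of 0.56 (95% interval 0.17 to 0.94, adjusted p = 0.102), map1lc3b one of 0.44 (interval 0.06 to 0.82, adjusted p = 0.182) and GABARAPL1 one of 0.48 (interval 0.06 to 0.89, adjusted p = 0.188). With library totals these changes shrank to 0.19, 0.16 and 0.22 (adjusted p = 0.626, 0.578 and 0.481). The untrained_WT sum was lowest in replicate 5, at 170.8 CPM, against 320.0 CPM in the lowest trained_WT library. That replicate also held the most red blood cell marker RNA, whose part in the low sum was not tested.

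Fission and fusion genes did not pass after training. The change was 0.22 (95% interval -0.17 to 0.61) in dnm1l, 0.34 (interval -0.08 to 0.76) in opa1, -0.12 (interval -0.55 to 0.31) in mfn2 and 0.02 (interval -0.28 to 0.31) in pink1. For MTFP1 it was 0.50 (interval 0.12 to 0.88, adjusted p = 0.138). The receptor gene bnip3 was at 70.2 to 140 CPM in trained_WT (median 105), with a change of 0.59 (interval 0.07 to 1.12, adjusted p = 0.192).

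**Figure D4:**
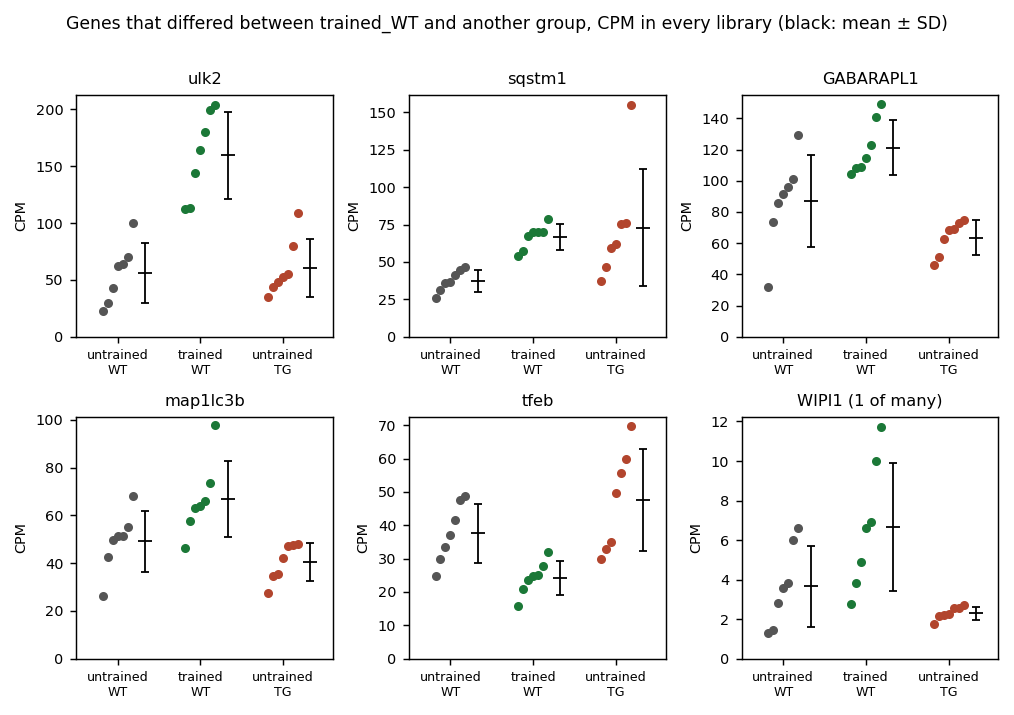
CPM of 6 genes in every library (points) with the mean and SD of each group of 7 (black). All trained_WT points of ulk2 lie above those of both other groups, and for GABARAPL1 and WIPI1 (1 of many) all untrained_TG points lie below the trained_WT points.

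Untrained_TG and trained_WT were also compared directly. Of 62 members 34 differed (54.8%, against 41.6% of all genes, 19.2% higher and 22.5% lower), 11 higher and 23 lower in untrained_TG. The member median was -0.28 and that of all genes -0.05. No overlap was seen for 20 members, 6 above and 14 below, against 19.7% of all genes. Of the members, 8 were higher and 19 lower in untrained_TG against both wild-type groups. These are not independent tests because they share the transgenic libraries. The share of all genes called in both was not counted, so these counts have no background beside them.

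A call in this contrast alone was made for 3 lower and 3 higher members. The share of all genes with such a call was not counted. Against untrained_WT, WIPI1 (1 of many) had a change of -0.66 (adjusted p = 0.119), and 4 of 22 alternatives called it lower. GABARAPL1 and map1lc3b were called lower there in 2 alternatives each, and the 3 higher members in 0. GABARAPL1, an ATG8 gene, was at 45.7 to 74.6 CPM in untrained_TG (median 68.3) and 105 to 149 CPM in trained_WT (median 115), with no overlap and a log2 fold change of -0.93 ± 0.20 (adjusted p = 0.000697). For map1lc3b it was -0.73 ± 0.18 (adjusted p = 0.00268) and for WIPI1 (1 of many), a phosphoinositide-binding gene, -1.53 ± 0.34 (adjusted p = 0.000953). The gene tfeb was higher in untrained_TG by 0.97 ± 0.20 (adjusted p = 0.000471), mff by 0.48 ± 0.16 (adjusted p = 0.0161) and atg4da by 0.59 ± 0.19 (adjusted p = 0.0159). The calls of mff and atg4da ended with library totals (0.31, adjusted p = 0.254, and 0.40, adjusted p = 0.14), and that of mff also with no filter. The second entry, MFF (1 of many), had a change of -0.17 (adjusted p = 0.684). The kinase gene ulk2 was lower in untrained_TG by 1.40 ± 0.29 on the log2 scale (adjusted p = 0.000443).

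**Figure D5:**
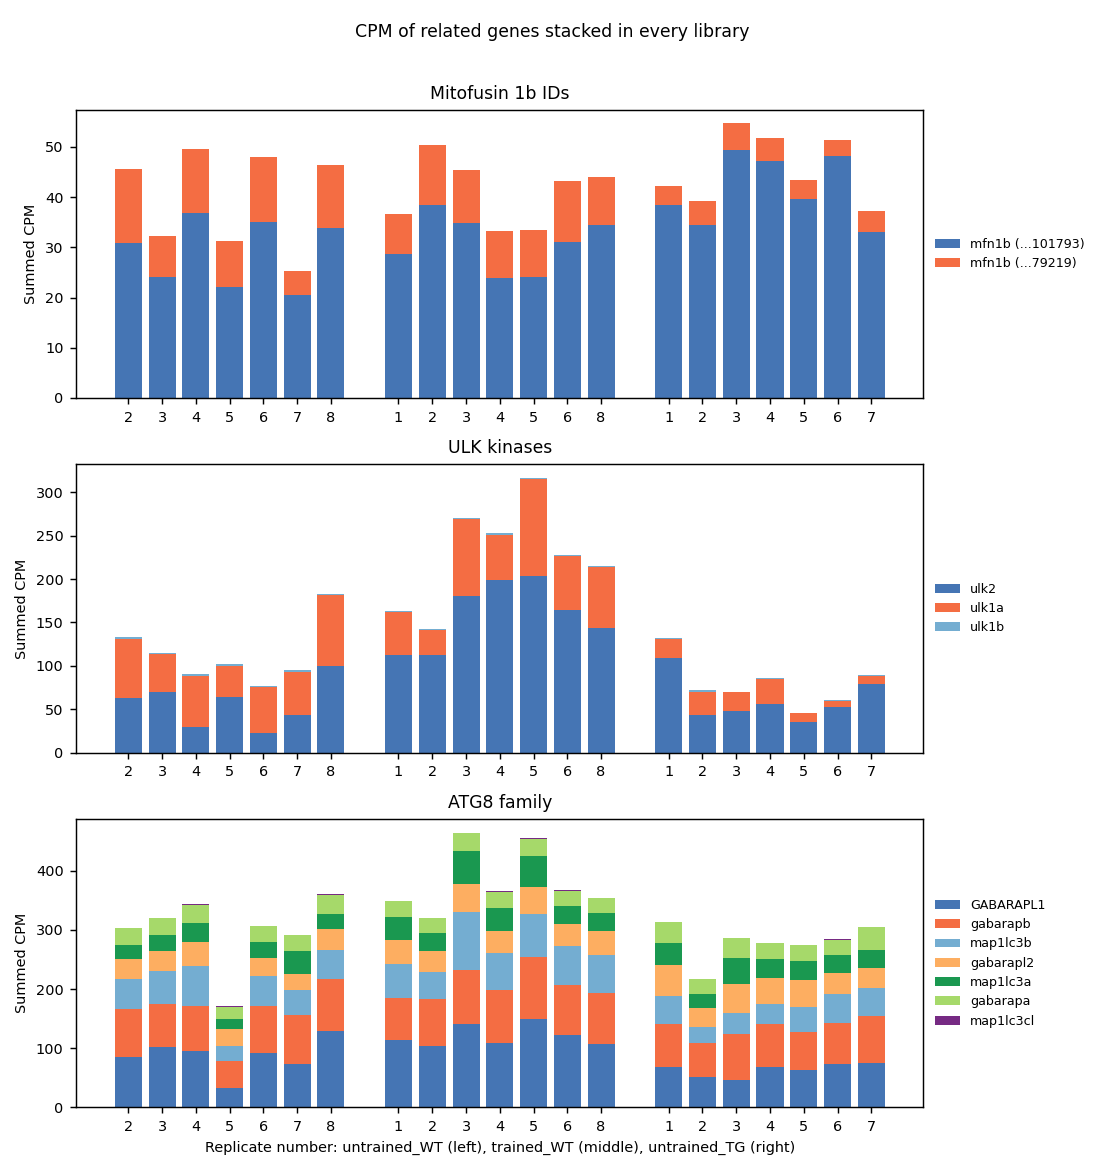
Stacked CPM of the mfn1b IDs, the ULK kinase genes and the ATG8 family in each of 21 libraries. CPM are not per length, so segments are compared between libraries and not between genes; the blue segments, mfn1b ENSDARG00000101793 and ulk2, average 90.5% and 75.2% of the untrained_TG bars in the upper panels, against 73.5% and 47.5% of the untrained_WT bars.

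Other genes of these pathways, which the symbol rule does not take in, were counted in lists. Of 23 tested genes of the autophagy machinery, 13 fell and 1 rose in untrained_TG (60.9% called, against 43.4% of all genes), with a median of -0.74 against -0.13 over all genes. With library totals 20 fell and none rose. The membrane-shaping gene sh3glb1a fell by 1.52 ± 0.16 (adjusted p = 1.06e-07). The listed gene tmem41ab, from a family of membrane proteins, fell from 209 to 390 CPM to 1.84 to 25.2 CPM, by 4.20 ± 0.46 (adjusted p = 1.77e-07). Whether tmem41ab itself acts in autophagy was not tested, though the list counts it. Of 32 tested genes of nutrient sensing at the lysosome 11 fell and 2 rose (40.6% called, near the background), or 22 and 2 with library totals. Those that fell included lamtor1, which anchors the sensing complex to the lysosome (-1.69 ± 0.19, adjusted p = 2.05e-07), and tsc1b, a restraint on mTORC1 (-1.54 ± 0.18, adjusted p = 4.86e-07).

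Of 39 lysosomal membrane and hydrolase genes 10 were lower and 4 higher (35.9% called, below the 43.4% of all genes), or 20 and 2 with library totals. The sialidase gene neu1 fell by 1.21 ± 0.17 (adjusted p = 5.11e-06). The proton pump, which acidifies the lysosome, had 7 of 23 genes higher and 2 lower with TMM scaling (39.1% called, below the 43.4% of all genes). With library totals 2 were higher and 10 lower. Its subunit genes atp6v0d1 and atp6v0a1a changed by 1.13 ± 0.16 (adjusted p = 7.05e-06) and -0.94 ± 0.15 (adjusted p = 2.20e-05).

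Cargo and mitophagy factors divided evenly with TMM scaling, with 9 of 27 higher and 9 lower (66.7% called, against 43.4% of all genes). With library totals 7 were higher and 13 lower. The adaptor gene calcoco2 fell by 3.34 ± 0.25 (adjusted p = 1.13e-09), from 61.4 to 301 CPM to 13.7 to 27.3 CPM, and the prohibitin gene phb2a rose by 1.27 ± 0.14 (adjusted p = 1.98e-07). Of 22 genes of inner membrane shape and its outer partners 6 rose and 3 fell with TMM scaling (40.9% called, near the background). With library totals 4 rose and 6 fell. The cristae junction genes chchd6b and chchd3b rose by 2.65 ± 0.18 (adjusted p = 2.55e-10) and 3.25 ± 0.30 (adjusted p = 1.44e-08).

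After training, 3 of 32 nutrient-sensing genes passed (9.38%, against 2.95% of all genes), all higher: fnip1, FNIP2 and flcn, the genes of the folliculin complex that controls TFEB and TFE3 at the lysosome in mammals. The folliculin partner gene fnip1 was at 20.1 to 43.4 CPM in untrained_WT, 87.0 to 127 CPM in trained_WT and 22.7 to 40.3 CPM in untrained_TG, a rise in training of 1.52 ± 0.15 (adjusted p = 5.63e-06) without overlap. The second partner gene FNIP2 rose by 2.52 ± 0.44 (adjusted p = 0.00197) and flcn, which encodes folliculin, by 1.32 ± 0.24 (adjusted p = 0.00299). Without untrained_WT replicates 3 and 7 the adjusted p of fnip1, FNIP2 and flcn was 3.68e-05, 0.00859 and 0.0184, and all 3 were also called with library totals.

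Lysosomal genes LAMP1 and ctsd, for a membrane protein and the protease cathepsin D, rose in training by 0.88 ± 0.17 (adjusted p = 0.00604) and 0.70 ± 0.16 (adjusted p = 0.0183). Both fell in untrained_TG, by 1.07 ± 0.18 (adjusted p = 3.63e-05) and 0.49 ± 0.16 (adjusted p = 0.0165). With library totals neither passed in training (0.54, adjusted p = 0.156, and 0.36, adjusted p = 0.314). The autophagosome-lysosome tether gene plekhm1 and the adaptor gene nbr1b rose in training by 1.28 ± 0.34 (adjusted p = 0.0422) and 0.82 ± 0.18 (adjusted p = 0.0153), and vmp1 and vcp fell by 0.43 ± 0.12 (adjusted p = 0.0488) and 0.50 ± 0.13 (adjusted p = 0.0447). Without untrained_WT replicates 3 and 7 none of these 4 was called. Of the inner membrane list chchd6a alone rose, by 0.57 ± 0.14 (adjusted p = 0.0301), and that call was lost too. No proton pump gene passed. An unadjusted p under 0.05 was found for 5 of 23, again with no count over all genes.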

How the data were processed

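Skeletal muscle RNA was sequenced from TruSeq stranded mRNA libraries, per the labels' protocols. The authors deposited raw counts per Ensembl gene, and tables of log2 fold changes, p-values and adjusted p-values for both comparisons with untrained_WT. Tools listed in the submitters' processing notes are HTSeq 0.9.1, STAR 2.4.0i and DESeq2, and the build there is GRCz10. Neither the annotation release nor the strand setting of the counting is stated there, so overlapping, antisense and closely related genes may share reads. The authors' normalised values (42 columns) were not used. Gene symbols came from the authors' deposited tables. The labels describe 24 samples; untrained_WT replicate 1, trained_WT replicate 7 and untrained_TG replicate 8 were not analysed here.

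HTSeq's summary entries, which belong to no gene, stayed outside all totals: the no-feature entry held a mean of 6.19% of reads in untrained_WT, 5.79% in trained_WT and 9.18% in untrained_TG, and the not-unique entry 9.07%, 9.06% and 6.65%.

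All 21 libraries entered 1 fit of the counts per group with edgeR 4.0.16 in R 4.3.3: TMM scaling, filterByExpr and the quasi-likelihood F test, with Benjamini-Hochberg adjustment over 18947 genes in each of 3 comparisons. Genes were called at an adjusted p below 0.05. The fit was planned for 8 libraries a group and run on 7. Levels are CPM on TMM-scaled library sizes, and the SE is the log2 fold change over the square root of F. The fit was also run on counts simulated from its own spread, with planted changes. These held no shift between groups in the mitochondrial share, so they cannot decide between scalings. The common biological coefficient of variation was 49.5%.

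Members and lists were chosen with earlier results of these data known. Per comparison with untrained_WT, called members with a mean of at least 50 counts were ranked by size of change and the first 12 named. The genes mfn2, opa1, dnm1l, pink1, tfeb, sqstm1, map1lc3a, map1lc3b and the bnip3 genes were named whatever their result. The 2 smallest p of each list were to be named as well, but after training list genes were named only when called. Other members, and flcn among the list genes, were named after their values were seen. Alternatives were DESeq2 1.42.0, median-ratio scaling, library totals, leaving out mitochondrially encoded genes, no filter, the libraries compared only, the replicate number as a block, and leaving out libraries. Sequences were not used here.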

Additional observations from a re-analysis of the deposited data

Results flagged for a closer look

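In 5 of 69 groups of 7 libraries examined, covering the 23 named members, the highest or lowest library stood apart from the other 6 by Dixon's criterion. Chance alone flags about 1 in 20 groups.

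The mfn2 level in untrained_TG replicate 3 was 98.8 CPM, where the others lay between 37.9 and 63.0 CPM. The sqstm1 level in untrained_TG replicate 7 was 155 CPM, where the others lay between 37 and 75.9 CPM. For ATG2A, untrained_TG replicate 6 was lowest at 2.43 CPM, below 3.76 to 4.70 CPM in the others. The tfe3b level was 4.34 CPM in untrained_WT replicate 2, against 1.78 to 2.19 CPM, and 1.92 CPM in trained_WT replicate 4, against 0.874 to 1.27 CPM. The calls of sqstm1, ATG2A and tfe3b in untrained_TG held without the untrained_TG or untrained_WT library concerned.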

How the results depend on the processing

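In untrained_TG against untrained_WT, 31 to 46 members were called over the alternatives (33 as reported). Of 330 values for the 15 called members named by rank or whatever their result, 328 kept direction and call. The exceptions were bnip3lb without untrained_WT replicate 8 and sqstm1 with library totals. Most of the 15 were chosen for large changes, which favours stable calls. Among the other called members, gabarapl2 lost its call in 9 of 22 alternatives. The same befell mfn1b ENSDARG00000101793 and wipi2 in 2 each and mtfr1 in 1. Against trained_WT, 31 to 36 members were called (34 as reported). After training, the count of 559 genes became 1267 with DESeq2, 1128 with library totals, 369 with the replicate block, 262 without both untrained_WT replicates 3 and 7, and 287 to 623 without single libraries (335 without untrained_WT replicate 3, 287 without trained_WT replicate 5). The 2 members became 4 with DESeq2, 4 with library totals, 1 with median-ratio scaling, 1 with no filter, 1 without both untrained_WT replicates 3 and 7, and 1 to 2 without single libraries. The cause of these changes was not tested.

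Among named members that were not called, library totals called mfn2 (-0.68), opa1 (-0.42), pink1 (-0.60) and map1lc3b (-0.76) lower in untrained_TG, as leaving out untrained_WT replicate 5 did map1lc3b (-0.43), and called tfeb lower after training (-0.88), as DESeq2 did (-0.64). Directions also turned. In untrained_TG opa1 was 0.053 with mitochondrially encoded genes left out, 0.082 with the replicate block and -0.15 to 0.054 without single libraries. For bnip3 these values were 0.083, 0.11 and -0.17 to 0.12, and 0.021 with both DESeq2 and median-ratio scaling. With library totals map1lc3a was -0.30 and tfeb -0.093, and after training pink1 -0.24, bnip3la -0.21 and bnip3lb -0.16. After training and without both untrained_WT replicates, pink1 was -0.097 and bnip3la -0.13; without single libraries they ran from -0.041 to 0.095 and -0.064 to 0.18.

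With library totals 15.9% of called genes were higher in untrained_TG against untrained_WT (42.1% as reported), 17.8% after training (76.2%; 55.9% with DESeq2) and 30.6% in untrained_TG against trained_WT (46.1%). Same-numbered libraries deviated together (correlation over 0.1) in 0, 3 and 1 of 6 pairs in the 3 comparisons. Between trained_WT and untrained_WT the correlations ran from -0.31 to 0.40. So few pairs cannot decide whether the numbers pair the samples. With the replicate number as a block 32, 2 and 32 members were called; in untrained_TG against untrained_WT wipi2 (adjusted p = 0.0516) and gabarapl2 (0.0534) lost their calls and ulk1b gained one (0.0323), and against trained_WT mtfr1 (0.0879) and atg4c (0.0541) lost theirs.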
